A study of Homo sapiens with 31 samples.

Results

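The 10 genes described here encode subunits of the SWI/SNF complexes: SMARCA4, SMARCA2, SMARCB1, SMARCC1, SMARCC2, SMARCD3, ARID1A, ARID1B, ARID2 and PBRM1. They were chosen by name, as chromatin remodelling genes of a family with members that are often mutated in ovarian cancer. All 10 were found among the 19221 genes with a usable entry, and all 10 passed the filter on low values in both comparisons. Each gene was followed across 31 mRNA libraries of 4 groups of cultured cells, from lines that the study used as models of ovarian cancer. The study itself questions the use of C13* because of its origin. It also cites a report of A2780 as an unlikely line of high-grade serous ovarian cancer.

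The first pair of groups was C13*, a cisplatin-resistant line, carrying lentiviral control shRNA (C13* shCON, n = 7 libraries) or shRNA against CEBPB, the gene of the transcription factor C/EBPβ (C13* shCEBPB, n = 8). The second pair was parental A2780 (n = 8) and, with as many libraries, A2780 OlaR, a strain of A2780 selected by prolonged culture with rising olaparib, a PARP inhibitor. All lines were grown in RPMI-1640 with fetal bovine serum. The labels do not say whether olaparib was present at harvest or whether the shRNA cells were 1 clone, and the study calls the replicates biological without saying that they were separate cultures, so p-values measure the spread between these libraries. The design asks what C/EBPβ knockdown changes in C13* and what differs between A2780 OlaR and its parent line.

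SWI/SNF complexes slide and evict nucleosomes with energy from ATP, and so open promoters and enhancers. One ATPase, SMARCA4 (BRG1) or SMARCA2 (BRM), sits on a core of SMARCB1, SMARCC and SMARCD subunits. The complex called BAF carries ARID1A or ARID1B, and the complex called PBAF carries ARID2 and PBRM1. Loss of ARID1A is common in clear cell and endometrioid ovarian carcinoma, and loss of SMARCA4 together with silencing of SMARCA2 marks small cell carcinoma of the ovary, hypercalcemic type.

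The groups did not all relate to each other as labelled. Over 12967 genes, the group means of log2(FPKM + 1) in the libraries labelled C13* shCON and A2780 OlaR had a Pearson's r of 0.993, and 69 genes differed between them by 1 or more on that scale. Between A2780 OlaR and A2780, its labelled parent, r was 0.709 and 4517 genes differed by that much. Between shCON and shCEBPB, r was 0.791 with 3585 such genes. Libraries of 1 group correlated with each other at 0.981 to 0.998. Of the other groups, A2780 OlaR was the nearest to all 7 shCON libraries, and shCON was the nearest to all 8 A2780 OlaR libraries. These r are descriptions across genes, which are not independent replicates. The sum of squamous and epithelial markers was higher in shCON and A2780 OlaR than in the others, but single markers differed in their order. All 11 squamous and epithelial markers had a mean of at least 1 FPKM in shCON and in A2780 OlaR, and 4 of 11 did in shCEBPB and in A2780. Their summed FPKM lay between 4478 and 5024 in shCON, between 4739 and 5699 in A2780 OlaR, between 1451 and 1915 in shCEBPB, and between 114 and 121 in A2780. The basal keratin KRT5 averaged 1530 FPKM in shCON and 1813 in A2780 OlaR, and it was at most 0.0416 in shCEBPB and at 0 in A2780. KRT8 and KRT18 were instead highest in shCEBPB, at 882 and 535 FPKM. They averaged 459 and 320 in shCON, and 483 and 291 in A2780 OlaR. DSP was at 50.3 FPKM in shCEBPB, near its 53.3 in shCON and 56.2 in A2780 OlaR. Markers of Müllerian epithelium did not divide the groups in 1 way. Of 7 such markers, 3 reached a mean of 1 FPKM in shCON, 2 in A2780 OlaR, 2 in shCEBPB and 1 in A2780, and their sum lay between 9.99 and 11.2, 9.47 and 10.5, 840 and 969.9, and 11.5 and 15.5 FPKM. PAX8, ESR1 and WT1 had higher means in shCON and A2780 OlaR than in the others, whereas FOLR1 averaged 887 FPKM in shCEBPB and SOX17 and MUC16 were also highest there. Mesenchymal markers differed among themselves too. Of 5, 3 reached 1 FPKM in shCON, 2 in A2780 OlaR, 5 in shCEBPB and 3 in A2780, and the sum lay between 32.8 and 38.0, 24.6 and 29.0, 350.0 and 378.3, and 857 and 899 FPKM. VIM and ZEB1 were higher in shCEBPB and A2780 than in both others, CDH2 was lowest in shCEBPB (7.56 FPKM) and FN1 lowest in A2780 (0.524 FPKM). Among 3 genes of blood, endothelium and stroma, PTPRC averaged 85.9 FPKM in A2780 and was at 0 in every shCON library. PECAM1 was instead at 0 in every A2780 library, and averaged 0.212 FPKM in shCON, 0.0184 in shCEBPB and 0.541 in A2780 OlaR. COL1A1 averaged 17.4 FPKM in A2780, 16.2 in shCEBPB, 3.17 in shCON and 4.46 in A2780 OlaR. CEBPB itself fell from 85.8 ± 9.93 FPKM (SD, n = 7) in shCON to 47.1 ± 9.05 (SD, n = 8) in shCEBPB, which left 54.9% of the shCON mean (two-sided exact permutation p = 0.000311, which is the smallest possible with these numbers of libraries). In A2780 it averaged 99.7 ± 7.63 FPKM and in A2780 OlaR 112 ± 11.6 (SD, n = 8 each, exact permutation p = 0.0314). Effects of the knockdown or of the selection cannot be told apart from any other difference between the cells, and group names below are those of the labels. The library codes begin with CS for shCON, R for shCEBPB, O for A2780 and C for A2780 OlaR, letters that the labels do not explain, and whether labels were exchanged between groups was not tested. If they were, every difference below would belong to other groups than those named. 1 shCON library, replicate 1, also has A2780 in its cell line field and was kept by its title.

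Upstream sequence is shown for the 3 members with the largest differences between groups that have an entry among the RefSeq promoters (GRCh38.p14), to set the letters bound by C/EBP factors beside the expression values. Each is the longest stretch of the 250 bases before a RefSeq start that lies in no annotated exon, read 5′ to 3′ on the gene's strand. SMARCA2 and SMARCD3 have further RefSeq starts, and the windows before those, not shown, hold no GGGCGG. PBRM1 has a further RefSeq start too. A PBRM1 window does hold GGGCGG, but outside the stretch shown, which has none. For SMARCA2 and SMARCD3 some of the windows not shown lie wholly outside exons. The stretches shown are therefore not the only upstream sequence of these genes. The stretches are chr9:2015097-2015185 (plus strand) before SMARCA2, chr7:151248695-151248944 (minus strand) before SMARCD3, and chr3:52685918-52686004 (minus strand) before PBRM1. Capitals mark GGGCGG on either strand, the core of the GC box bound by SP1.
SMARCA2: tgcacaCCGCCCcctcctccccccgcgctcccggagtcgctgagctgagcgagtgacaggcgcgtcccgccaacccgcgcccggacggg
SMARCD3: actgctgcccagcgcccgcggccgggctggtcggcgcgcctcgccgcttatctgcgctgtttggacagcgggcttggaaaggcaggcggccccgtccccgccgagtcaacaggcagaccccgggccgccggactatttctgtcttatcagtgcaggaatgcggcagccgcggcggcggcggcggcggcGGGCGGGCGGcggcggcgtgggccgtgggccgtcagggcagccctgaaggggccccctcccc
PBRM1: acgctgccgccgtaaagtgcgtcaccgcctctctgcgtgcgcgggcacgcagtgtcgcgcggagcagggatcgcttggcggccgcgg

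RefSeq had 15 such windows of 250 bases for 7 of the 10 members, and SMARCC1, SMARCC2 and ARID2 had no entry. The C/EBP-type letters TTGCNNAA were in 0 of the 15 windows on either strand, and in 9.06% of all 34943 windows of that length. CCAAT was in 3 of the 15 (SMARCB1, ARID1B and PBRM1) and in 32.0% of all windows. GGGCGG was in 6 of the 15 (1 each of SMARCA4, SMARCA2, SMARCD3, ARID1A, ARID1B and PBRM1) and in 42.5% of all windows. A match or its lack describes these letters in these windows and nothing further.

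In the libraries labelled C13* shCEBPB, SMARCA2 and PBRM1 fell to less of their shCON level than any other member, and ARID1B rose the most. All 10 members had an adjusted p under 0.05 (limma on log2(FPKM + 1), Benjamini-Hochberg over all genes tested), where FPKM is the number of sequenced fragments relative to gene length and library total. Of all 12006 genes tested, 84.7% passed the same threshold, so the members' count was near that of genes in general. There were 7 members higher in shCEBPB and 3 lower, against 38.9% of all genes higher and 45.7% lower. In 7 members the shCEBPB and shCON ranges were apart, as in 66% of all genes, and 2 members differed by 1 or more on the log2 scale, as did 29.5% of all genes. The median difference was 0.26 over the members and -0.07 over all genes. In cultures measured as a whole, fewer cells of a kind and less RNA per cell cannot be told apart.

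Between A2780 OlaR and A2780, SMARCD3 and ARID2 were lower in A2780 OlaR and SMARCA2 was higher, each by more than 1 on the log2 scale. There, 9 of the 10 members passed the threshold, beside 89.8% of all 12458 genes tested. Of these, 5 were higher and 4 lower, against 40.1% and 49.7% of all genes. The 2 groups did not overlap in 7 members and in 74.1% of all genes, and 3 members differed by 1 or more, as did 35.7% of all genes. The median was 0.09 over the members and -0.12 over all genes, a median that moved to 0.01 when libraries were scaled by median ratios. With that scaling 6 members were higher and 2 lower, and with quantile normalization 6 were higher and 3 lower. Relative to the median of all genes, the differences of SMARCC2 and ARID1B were -0.03 and -0.02.

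The order of the groups in each member came from 1 fit of all 4 groups, in which 37.7% of 12967 genes passed the threshold between shCON and A2780 OlaR. The share was 84.3% between shCEBPB and shCON, 84.8% between shCEBPB and A2780 OlaR, 88% between shCEBPB and A2780, 87.6% between shCON and A2780, and 88% between A2780 OlaR and A2780. Between shCON and A2780 OlaR, 5 members passed it (SMARCA4, SMARCA2, SMARCB1, SMARCD3 and ARID1B), each lower in shCON.

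**Figure D1:**
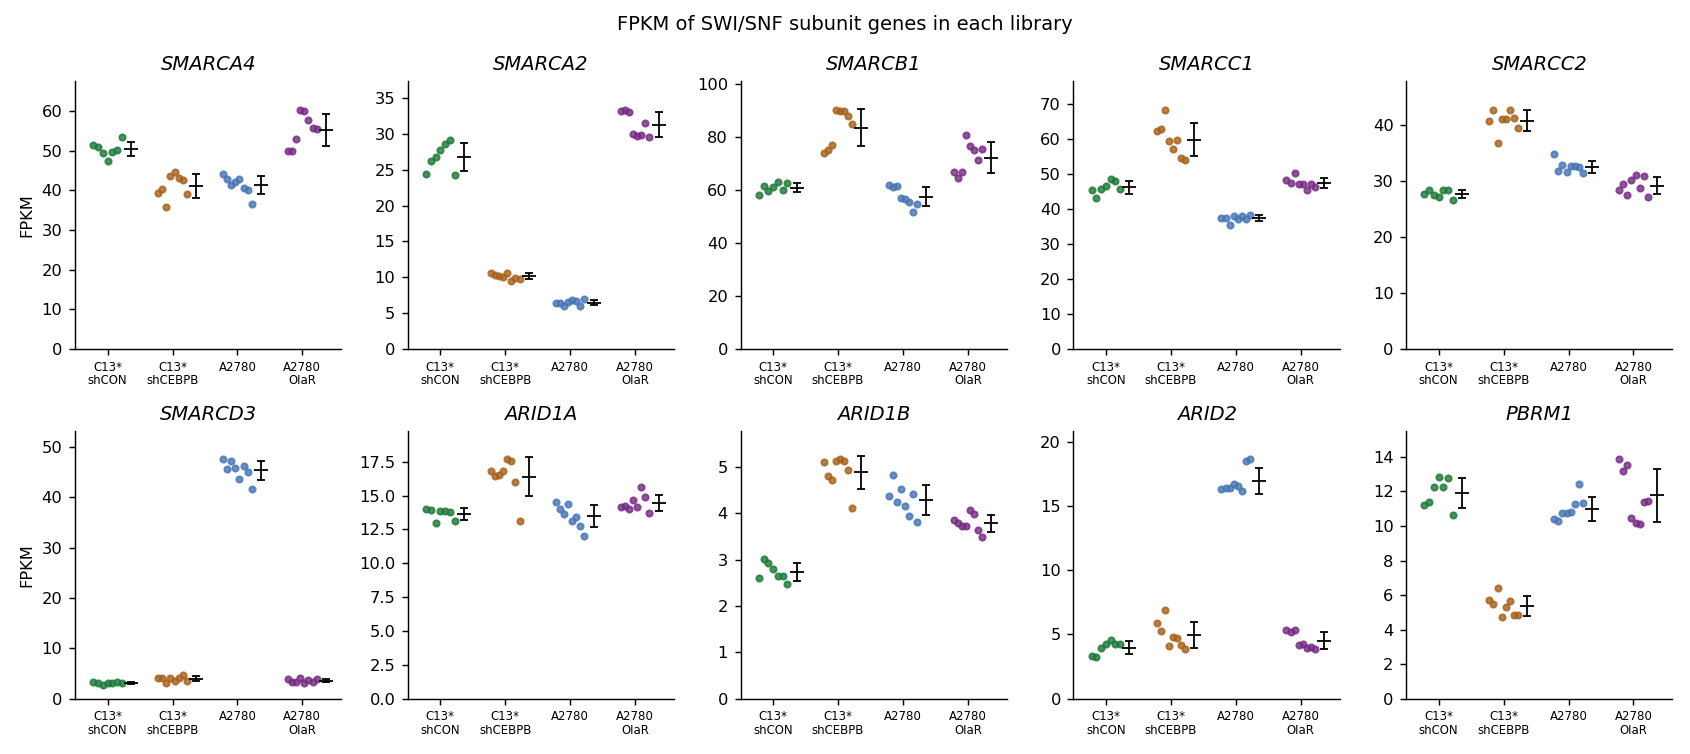
Each panel plots the FPKM of 1 member (y axis, linear from 0) in every library of the 4 groups (x axis), with the mean and SD as a black bar. SMARCD3 and ARID2 stand high in A2780 alone, SMARCA2 is high in C13* shCON and A2780 OlaR, and PBRM1 is low in C13* shCEBPB.

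SMARCA2, the ATPase that can replace SMARCA4, lies on chromosome 9 of hg38 (chr9:1980290-2193624, plus strand). In shCON, SMARCA2 was at 24.2 FPKM in its lowest library, 26.8 at the median and 29.2 in its highest. In shCEBPB these values were 9.46, 10.1 and 10.6. Every shCEBPB library was below every shCON library. The difference was -1.32 on the log2(FPKM + 1) scale (standard error 0.05, adjusted p = 9.52e-15, limma), and the shCEBPB mean was 37.9% of the shCON mean. In A2780, SMARCA2 had a lowest value of 5.92, a median of 6.48 and a highest value of 6.97 FPKM. In A2780 OlaR it was at 29.6, 30.8 and 33.4. The groups were again apart, with A2780 OlaR the higher by 2.11 (standard error 0.04, adjusted p = 3.86e-20, limma). The order over the groups was A2780 OlaR, shCON, shCEBPB, A2780, and each neighbour in it differed (adjusted p at most 1.07e-04, limma, 1 fit of all groups). With the other of the alike groups in its place, the difference of SMARCA2 between shCEBPB and A2780 OlaR was -1.54 on the log2 scale, and that between shCON and A2780 was 1.89.

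SMARCA4, the main ATPase of most cells, is on chromosome 19 (chr19:10960932-11079426, plus strand). The shCON libraries of SMARCA4 ranged from 47.5 to 53.5 FPKM around a median of 50.3, and in shCEBPB it ranged from 35.8 to 44.8 around 41.6. The shCEBPB libraries were all lower, with a difference of -0.29 (standard error 0.05, adjusted p = 1.69e-05, limma), and -0.55 once GC content and gene length were corrected for. In A2780, SMARCA4 lay between 36.7 and 44.3 with a median of 41.7, and in A2780 OlaR between 49.95 and 60.4 with a median of 55.6. A2780 OlaR was the higher in every library, by 0.41 (standard error 0.05, adjusted p = 1.02e-07, limma). In the libraries numbered 1 to 3 in their codes, taken alone, that difference was 0.25. shCEBPB and A2780, which end the order, differed by 0.01 (adjusted p = 0.840, limma, 1 fit of all groups). The range of group means of SMARCA4 was 0.42, against 2.11 for SMARCA2.

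SMARCD3 (BAF60C), 1 of the 3 alternative SMARCD subunits and the one known from heart and muscle, is on chromosome 7 (chr7:151238764-151277896, minus strand). In A2780, SMARCD3 was at 41.6 FPKM in its lowest library, 45.8 at the median and 47.5 in its highest. In A2780 OlaR the values were 3.19, 3.50 and 4.02. A2780 was apart from A2780 OlaR in all libraries, and the mean of A2780 OlaR was 7.84% of the A2780 mean (difference -3.35, standard error 0.04, adjusted p = 6.48e-23, limma). In shCON, SMARCD3 was between 2.65 and 3.31 FPKM with a median of 3.15, and in shCEBPB between 3.12 and 4.69 with a median of 4.09. The C13* groups overlapped, and the difference was 0.26 (standard error 0.06, adjusted p = 8.47e-04, limma). It did not pass the threshold in libraries 1 to 3 alone (0.24, adjusted p = 0.0565, limma) and was 0.49 with quantile normalization. In the order A2780, shCEBPB, A2780 OlaR, shCON, the neighbours shCEBPB and A2780 OlaR did not pass the threshold (difference 0.11, adjusted p = 0.0559, limma, 1 fit of all groups). SMARCD3 shares 1321 bp of its 4919 exonic bp with CHPF2 on the opposite strand. CHPF2 averaged 20.6 FPKM in shCON, 30.5 in shCEBPB, 11.1 in A2780 and 17.4 in A2780 OlaR, so it was lowest where SMARCD3 was highest. Its part in the SMARCD3 values was not tested.

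SMARCB1 (SNF5), the core subunit lost in rhabdoid tumors, is on chromosome 22 (chr22:23786931-23838009, plus strand). In shCON, SMARCB1 was between 58.0 and 62.9 FPKM around a median of 61.1, and in shCEBPB between 74.1 and 90.2 around 86.3. It was higher in every shCEBPB library, by 0.45 (standard error 0.05, adjusted p = 1.79e-07, limma), or by 0.24 after the correction for GC content and length. In A2780, SMARCB1 was between 51.7 and 61.9 around 56.8, and in A2780 OlaR between 64.5 and 80.8 around 73.3. A2780 OlaR was the higher, by 0.32 and without overlap (standard error 0.05, adjusted p = 6.58e-06, limma), but by 0.0996 in libraries 1 to 3 alone (adjusted p = 0.00874, limma). shCON and A2780 were neighbours in the order and did not pass the threshold against each other (difference 0.08, adjusted p = 0.137, limma, 1 fit of all groups). SMARCB1 shares 2923 bp of exons with DERL3 on the opposite strand, which averaged 0.0222 FPKM in shCON, 9.56 in shCEBPB, 1.17 in A2780 and 0.0257 in A2780 OlaR. The part of DERL3 reads in the SMARCB1 values was not tested.

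The paralogues SMARCC1 and SMARCC2 pair as scaffold of the core. They are on chromosome 3 (chr3:47585269-47782106, minus strand) and chromosome 12 (chr12:56162359-56189567, minus strand). In shCON, SMARCC1 was between 43.1 and 48.7 FPKM around a median of 45.7, and in shCEBPB between 53.9 and 68.3 around 59.5. SMARCC1 rose in shCEBPB by 0.36 without overlap (standard error 0.05, adjusted p = 2.04e-06, limma). In A2780, SMARCC1 was between 35.4 and 38.3 around 37.4, and in A2780 OlaR between 45.4 and 50.1 around 47.0. It was higher in A2780 OlaR by 0.33, again without overlap (standard error 0.03, adjusted p = 7.51e-10, limma). For SMARCC2, shCON was between 26.6 and 28.5 FPKM around a median of 27.7, and shCEBPB between 36.9 and 42.8 around 41.2. It was higher in every shCEBPB library, by 0.54 (standard error 0.04, adjusted p = 2.30e-10, limma). In A2780, SMARCC2 was between 31.4 and 34.9 around 32.6, and in A2780 OlaR between 27.2 and 31.1 around 29.1. Unlike SMARCC1, it was lower in A2780 OlaR (difference -0.15, standard error 0.03, adjusted p = 3.80e-04, limma), a difference that with median-ratio scaling was -0.02 and did not pass the threshold (adjusted p = 0.619, limma). The correction for GC content and length gave -0.29. Each gene was at a similar level in shCON and A2780 OlaR. The differences between these groups were -0.04 (adjusted p = 0.506) for SMARCC1 and -0.07 (adjusted p = 0.111) for SMARCC2 (limma, 1 fit of all groups). SMARCC2 shares 719 bp of exons with MYL6 on the opposite strand, which averaged 344 FPKM in shCON, 506 in shCEBPB, 390 in A2780 and 327 in A2780 OlaR, the same order as SMARCC2 except for the lowest pair. The part of MYL6 reads was not tested.

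ARID1A and ARID1B, the alternative ARID subunits of BAF, are on chromosome 1 (chr1:26693236-26782104, plus strand) and chromosome 6 (chr6:156776020-157210779, plus strand). In shCON, ARID1A was between 12.98 and 14.04 FPKM around a median of 13.9, and in shCEBPB between 13.1 and 17.7 around 16.7. The groups overlapped through 1 low shCEBPB library, and shCEBPB was higher by 0.24 (standard error 0.05, adjusted p = 4.71e-04, limma). Correction of the libraries for GC content and gene length left 0.07 (adjusted p = 0.195, limma). In A2780, ARID1A was between 12.03 and 14.6 around 13.5, and in A2780 OlaR between 13.7 and 15.6 around 14.2. These groups overlapped, and the difference of 0.09 was the smallest among the members called there (standard error 0.04, adjusted p = 0.0372, limma). It did not pass the threshold in 13 of the alternatives, among them the libraries 1 to 3 alone (difference 0.01) and those without A2780 replicate 8 (0.07), A2780 replicates 5, 6 or 7, or A2780 OlaR replicates 4, 6 or 7. With median-ratio scaling it was 0.22 and with quantile normalization 0.21. ARID1A had the smallest range of group means of all members, 0.26.

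ARID1B was the lower of the pair in all groups. In shCON, ARID1B was between 2.48 and 3.01 FPKM around a median of 2.64, and in shCEBPB between 4.11 and 5.16 around 5.02. The shCEBPB libraries were all higher, and their mean was 1.79 times the shCON mean (difference 0.66, standard error 0.05, adjusted p = 5.72e-10, limma). In A2780, ARID1B was between 3.81 and 4.83 around 4.31, and in A2780 OlaR between 3.48 and 4.07 around 3.77. It was lower in A2780 OlaR with overlap (difference -0.14, standard error 0.04, adjusted p = 0.00369, limma). With quantile normalization this difference was 0.02 (adjusted p = 0.589) and with median-ratio scaling -0.03 (adjusted p = 0.479, limma), neither past the threshold, and after the correction for GC content and length it was -0.23. ARID1B was also the member by which shCON and A2780 OlaR were furthest apart (difference -0.36, adjusted p = 6.92e-08, limma, 1 fit of all groups).

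ARID2, the ARID subunit of PBAF, is on chromosome 12 (chr12:45729706-45908040, plus strand) and shares no exonic bases with another gene. In A2780, ARID2 was at 16.2 FPKM in its lowest library, 16.5 at the median and 18.6 in its highest. In A2780 OlaR these were 3.90, 4.21 and 5.33. No library overlapped, and the A2780 mean was 3.75 times the A2780 OlaR mean (difference -1.71, standard error 0.06, adjusted p = 1.02e-15, limma). In shCON, ARID2 was between 3.21 and 4.53 with a median of 4.24, and in shCEBPB between 3.85 and 6.91 with a median of 4.77. These groups overlapped, and the difference of 0.25 had the largest standard error of the members (0.10, adjusted p = 0.0238, limma). It was lost without shCON replicate 1 (adjusted p = 0.0551) or replicate 2 (adjusted p = 0.0576), and within libraries 4 to 8 it was -0.00434 (adjusted p = 0.952, limma), against 0.65 in libraries 1 to 3 (adjusted p = 2.34e-04, limma). Quantile normalization gave 0.46 and the correction for GC content and length 0.38. A2780 OlaR did not pass the threshold against either of its neighbours in the order, shCEBPB (adjusted p = 0.241) and shCON (adjusted p = 0.169, limma, 1 fit of all groups).

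PBRM1 (BAF180), the bromodomain subunit of PBAF and a tumor suppressor of the kidney, is on chromosome 3 (chr3:52545352-52685917, minus strand). In shCON, PBRM1 was at 10.6 FPKM in its lowest library, 12.3 at the median and 12.8 in its highest. In shCEBPB the values were 4.74, 5.39 and 6.39. All shCEBPB libraries were below all others of the series, and the mean was 45.1% of the shCON mean (difference -1.02, standard error 0.06, adjusted p = 1.83e-11, limma). In A2780, PBRM1 was between 10.3 and 12.5 FPKM around 10.8, and in A2780 OlaR between 10.1 and 13.9 around 11.4. The groups overlapped widely, and PBRM1 was the 1 member that did not pass the threshold between them (difference 0.08, 95% interval -0.05 to 0.22, adjusted p = 0.231, limma). It passed with median-ratio scaling (0.21, adjusted p = 0.00377), quantile normalization (0.20, adjusted p = 0.00382), the correction for GC content and length (0.15, adjusted p = 7.85e-04) and in libraries 1 to 3 alone (0.34, adjusted p = 3.39e-05), and within libraries 4 to 8 it was -0.07 (adjusted p = 0.190, limma). shCON, A2780 OlaR and A2780 followed each other in the order without passing the threshold (adjusted p = 0.828 and 0.210, limma, 1 fit of all groups).

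**Figure D2:**
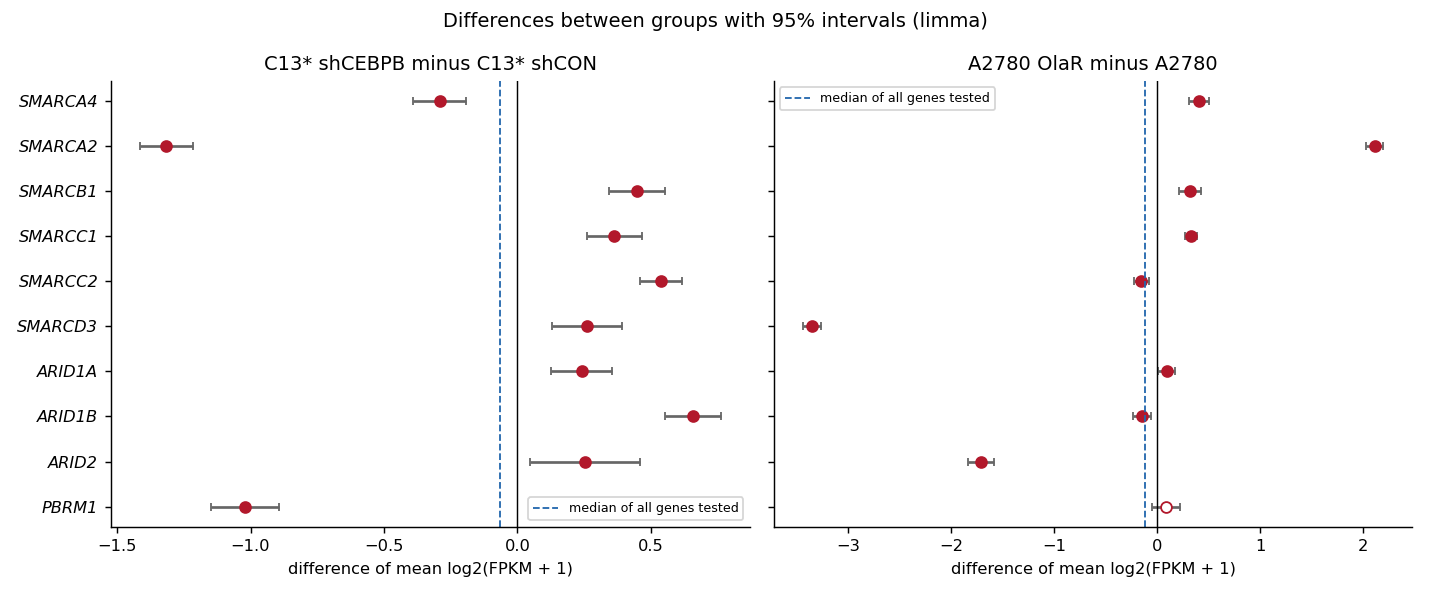
Differences between the group means of log2(FPKM + 1) for each member (x axis) are plotted with 95% intervals from limma, with filled points for an adjusted p under 0.05 and a dashed line at the median of all genes tested. In the left panel SMARCA2 and PBRM1 lie lowest at -1.32 and -1.02, and in the right panel SMARCD3 and ARID2 lie lowest at -3.35 and -1.71 while SMARCA2 is at 2.11.

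Subunits that take the same place in the complex were compared within each library, as log2 of the ratio of (FPKM + 1), which does not depend on scaling but for the added 1. The ratios were not recomputed with the correction for GC content and length, which can move them. In C13* that correction took SMARCA4 from -0.29 to -0.55 and SMARCA2 from -1.32 to -1.20. It took ARID1A from 0.24 to 0.07 and ARID2 from 0.25 to 0.38. Over 5 pairs and both comparisons, 10 exact permutation tests were made and their p adjusted over the 10. The SMARCA2/SMARCA4 log2 ratio ran from -1.11 to -0.76 in shCON, and in shCEBPB from -2.08 to -1.72, where it was lower (difference -1.02, standard error 0.07, adjusted exact p = 3.89e-04). It was between -2.62 and -2.24 in A2780 and between -0.99 and -0.57 in A2780 OlaR (difference 1.70, standard error 0.08, adjusted exact p = 3.11e-04). In linear terms, SMARCA2 made up a median of 35.1% of the summed FPKM of both ATPase genes in shCON, 19.7% in shCEBPB, 13.3% in A2780 and 35.5% in A2780 OlaR. That sum was 77.2 ± 1.49 FPKM (SD, n = 7) in shCON, 51.3 ± 2.97 in shCEBPB, 47.9 ± 2.27 in A2780 and 86.6 ± 2.69 in A2780 OlaR (SD, n = 8 for each of the last). These are shares of mRNA, and protein was not measured here.

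SMARCD3 made up a median of 44.6% of the FPKM of SMARCD1, SMARCD2 and SMARCD3 in A2780, and 4.54%, 4.90% and 4.79% in shCON, shCEBPB and A2780 OlaR. The SMARCD3/SMARCD1 log2 ratio was above 0 in A2780 (0.54 to 0.70) and below it in all libraries of the other groups. It was lower in A2780 OlaR than in A2780 (difference -3.31, standard error 0.05, adjusted exact p = 3.11e-04). It was also lower in shCEBPB than in shCON (difference -0.74, standard error 0.06, adjusted exact p = 3.89e-04), although SMARCD3 itself was higher there. SMARCD1 had a mean of 48.6 FPKM in shCEBPB and 23.8 in shCON.

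Among the ARID subunits, ARID2 made up a median of 48.0% of the summed FPKM of ARID1A, ARID1B and ARID2 in A2780, 20.4% in shCON, 17.8% in shCEBPB and 18.7% in A2780 OlaR. The ARID2/ARID1A log2 ratio was lower in A2780 OlaR than in A2780 (difference -1.80, standard error 0.09, adjusted exact p = 3.11e-04). In the C13* groups it differed by 0.01 (standard error 0.10, adjusted exact p = 0.911), which moved to 0.38 in libraries 1 to 3 and to -0.23 in libraries 4 to 8. The ARID1B/ARID1A ratio was higher in shCEBPB by 0.42 and lower in A2780 OlaR (difference -0.23, standard errors 0.03 and 0.03, adjusted exact p = 3.89e-04 and 3.11e-04), without overlap in either comparison. SMARCC2/SMARCC1 was higher in shCEBPB by 0.17, with overlap (standard error 0.06, adjusted exact p = 0.0180), and in libraries 1 to 3 alone the difference was -0.01. In A2780 OlaR it was lower than in A2780, without overlap (difference -0.49, standard error 0.04, adjusted exact p = 3.11e-04).

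**Figure D3:**
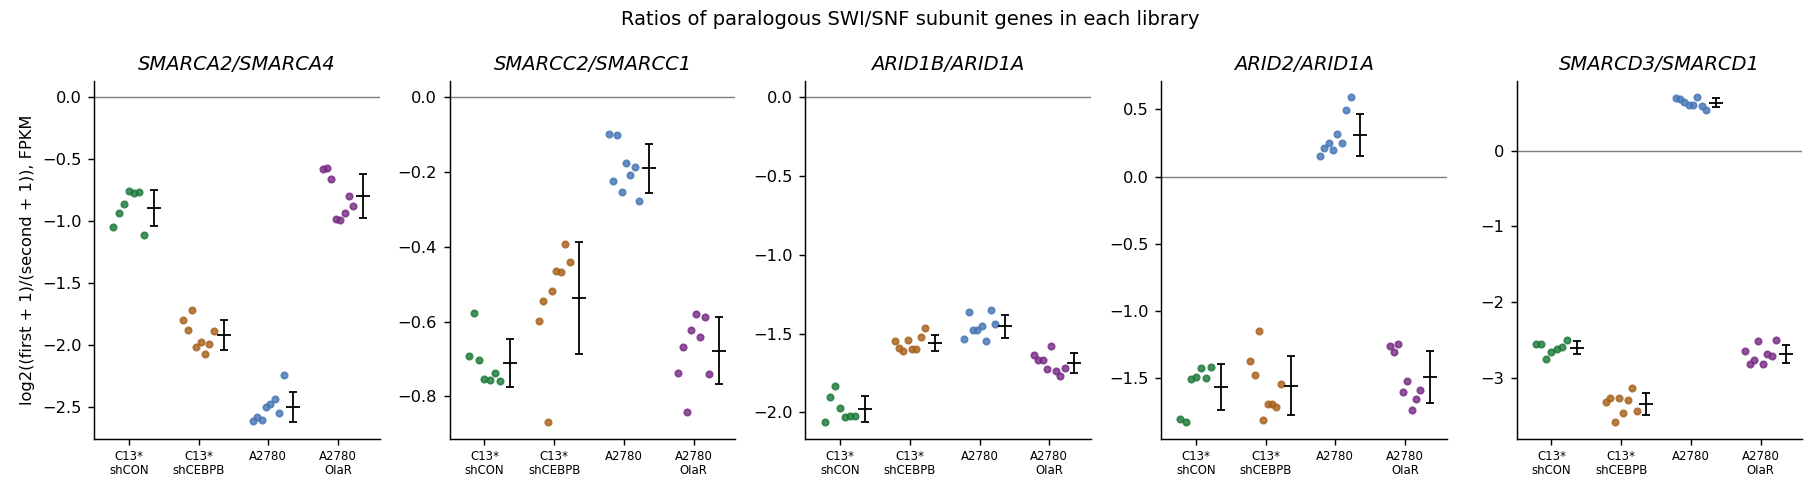
The log2 ratio of (FPKM + 1) of 5 pairs of subunit genes (y axis) is plotted for every library of the 4 groups (x axis), with the mean and SD as a black bar and a line at 0, where both genes are equal. The SMARCA2/SMARCA4 ratio separates shCON and A2780 OlaR (-1.11 or higher) from shCEBPB and A2780 (-1.72 or lower), and ARID2/ARID1A and SMARCD3/SMARCD1 are above 0 in A2780 alone.

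The library codes carry a number from 1 to 8, whose meaning the labels do not give. Libraries 1 to 3 stood apart from 4 to 8 mostly in A2780 OlaR and shCEBPB, and least in shCON. The 2 ranges did not overlap in 51.5% of 12967 genes in A2780 OlaR, 47.0% in shCEBPB, 18.9% in A2780 and 4.86% in shCON. Among the 10 members this was so for 6, 3, 2 and 2. ARID2 averaged 6.03 FPKM in libraries 1 to 3 and 4.33 in 4 to 8 of shCEBPB, and 5.27 and 4.07 in A2780 OlaR, but 3.48 and 4.33 in shCON. PBRM1 averaged 13.5 and 10.7 in A2780 OlaR, and SMARCB1 75.3 and 88.4 in shCEBPB. In A2780 both moved the other way, PBRM1 with 10.5 and 11.3 and SMARCB1 with 61.4 and 55.1. The means of ARID2 moved with the number in opposite directions in the 2 C13* groups, although few genes had ranges apart in shCON. The share of genes that random numbering would set apart was not computed. The part of the number beyond the within-range values given here was not tested. The large differences were present in each range. SMARCA2 in shCEBPB was at 10.4 FPKM in libraries 1 to 3 and 9.99 in 4 to 8, against 25.8 and 27.4 in shCON. SMARCD3 in A2780 was at 46.8 and 44.5, against 3.47 and 3.61 in A2780 OlaR.

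**Figure D4:**
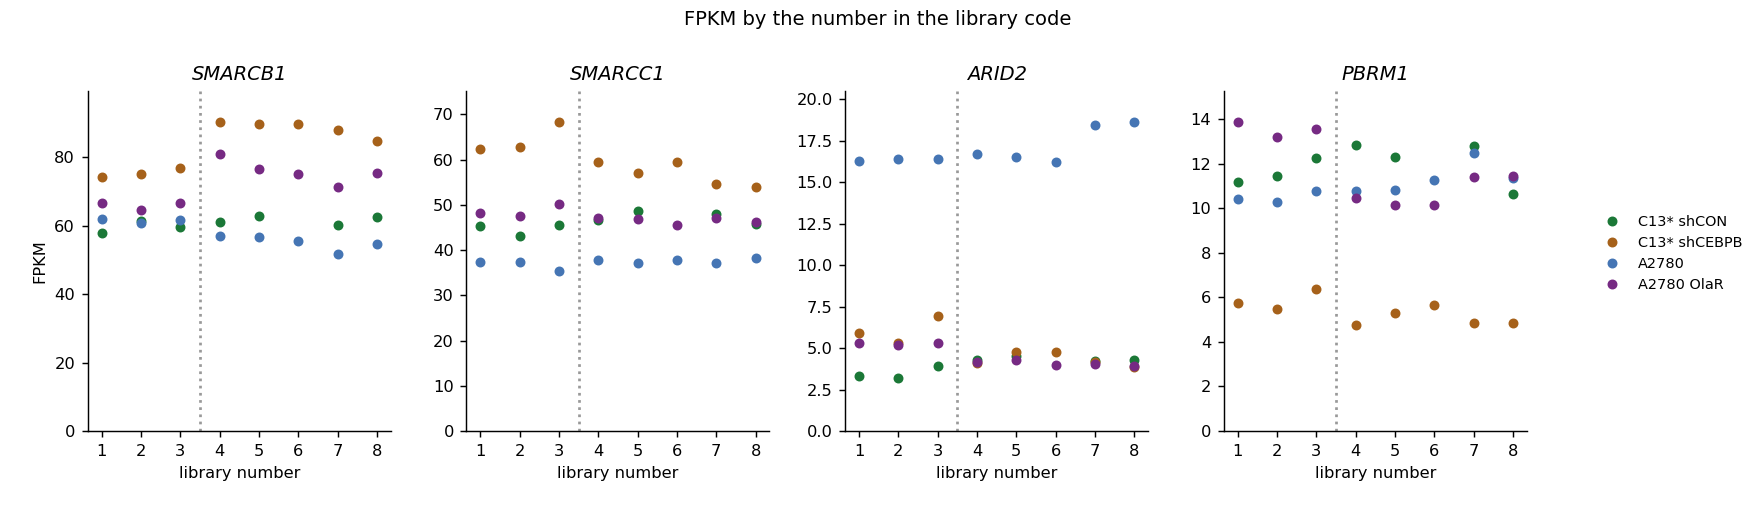
FPKM of 4 members (y axis, linear from 0) is plotted against the number in the library code (x axis), with 1 point per library, a color per group and a dotted line between numbers 3 and 4. SMARCB1 in C13* shCEBPB and A2780 OlaR is lower in libraries 1 to 3, and PBRM1 in A2780 OlaR and ARID2 in C13* shCEBPB and A2780 OlaR are higher there. In A2780, SMARCB1 is higher and PBRM1 lower in libraries 1 to 3.

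Other genes of the SWI/SNF complexes were listed by name, of which 16 of 18 were tested in each comparison. In shCEBPB, 6 of them were higher and 8 lower, so that 87.5% passed the threshold, beside 84.7% of all genes (38.9% higher and 45.7% lower). Their median difference was -0.10, beside -0.07 over all genes. In A2780 OlaR, 6 were higher and 7 lower, or 81.3% in all, beside 89.8% of all genes (40.1% higher and 49.7% lower), and the medians were 0.00 and -0.12. The genes named here are the 2 with the largest differences per list and comparison. PHF10, a PBAF subunit, rose from 8.37 ± 0.869 FPKM (SD, n = 7) in shCON to 24.8 ± 3.14 (SD, n = 8) in shCEBPB (difference 1.45, adjusted p = 3.27e-12, limma). It was at 27.3 ± 0.935 in A2780 and 7.01 ± 0.660 in A2780 OlaR (SD, n = 8 each; difference -1.82, adjusted p = 4.60e-18, limma). SS18L1, a BAF subunit of neurons, fell by 1.07 in shCEBPB. BRD9, the bromodomain subunit of non-canonical BAF, was at 20.5 FPKM in A2780 and 58.0 in A2780 OlaR (difference 1.46, adjusted p = 9.33e-19, limma).

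Of 18 ATPases of other remodelling families, 17 were tested in C13*, with 7 higher and 7 lower in shCEBPB, and 18 in A2780, with 5 higher and 10 lower in A2780 OlaR. Thus 82.4% and 83.3% passed the threshold, beside 84.7% and 89.8% of all genes, and their medians were -0.06 and -0.15, beside -0.07 and -0.12. SMARCA1, an ATPase of the ISWI family, averaged 1.47 FPKM in shCON, 14.5 in shCEBPB, 30.8 in A2780 and 1.11 in A2780 OlaR (differences 2.64 and -3.92, adjusted p = 1.83e-15 and 4.02e-22, limma). CHD9 fell by 1.41 in shCEBPB, and CHD5 was lower in A2780 OlaR (difference -2.55). Of the 11 genes of Polycomb repressive complex 2, which silences genes by methylating histone H3 and opposes SWI/SNF, 2 were higher and 5 lower in shCEBPB (63.6%, beside 84.7% of all genes), with a median of -0.10, beside -0.07. In A2780 OlaR 7 were higher and 3 lower (90.9%, beside 89.8% of all genes), with a median of 0.34, beside -0.12. EZH1, one of its 2 methyltransferases, fell by 1.30 in shCEBPB and EED rose by 0.82. JARID2 and PHF19, which help to place the complex, were higher in A2780 OlaR by 1.28 and 1.06.

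The 2 members whose group means ranged over more than 2 on the log2 scale were matched with the genes nearest to them over the 31 libraries, by the root mean square difference of log2(FPKM + 1) after centring. Nearest to SMARCA2 among 12967 genes were DSN1 (0.131), DTX4 (0.135) and PTK2B (0.146). DSN1, a kinetochore protein, averaged 52.1 FPKM in shCON, 23.5 in shCEBPB, 12.7 in A2780 and 59.5 in A2780 OlaR. Nearest to SMARCD3 were SLC30A8 (0.132), DOCK3 (0.133) and HAND2 (0.145). In A2780, SLC30A8 averaged 9.42 FPKM, DOCK3 10.7 and HAND2 9.02. Their means in the other groups were at most 0.0348, 0.316 and 0.0185.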

How the data were processed

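Libraries were sequenced as 150-bp read pairs, and the authors used TopHat on hg38, HTSeq for read counts and edgeR for DEGs. The values the authors deposited, and the only ones used here, are FPKM per gene and library. The annotation behind them and the use of strand are not given in the sources used here. The table has 19225 entries, of which 4 that repeat a symbol were dropped. FPKM hold no read totals, so absolute depth is unknown and no counting interval is given. Steps of low values gave relative depths of 0.866 to 1.23 (1295 genes), and the FPKM of a library summed to 417556 to 454578.

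Groups and replicate numbers came from the sample labels. The 10 members and all gene lists were chosen with earlier results of these data known. All 10 members, CEBPB and the 2 called genes with the largest difference in each list and comparison were named. The 3 genes nearest to a member that ranged over at least 2 on the log2 scale were also named. Of the markers, some were named, and the others entered only the counts and sums. Genes were tested where they reached 1 FPKM in at least the number of libraries of the smaller group, with limma 3.58.1 (R 4.3.3; lmFit, and eBayes with trend, two-sided) on log2(FPKM + 1), a scale that understates changes of low genes. Each comparison used its own 2 groups, and the order of the groups came from 1 fit of all 4 groups with a filter of 1 FPKM in 7 libraries. An adjusted p under 0.05 was the threshold for a call. Ratios had exact permutation tests (two-sided, scipy 1.17.1). The fits were first run on simulated data with known changes in 200 genes. Of these, 198 were recovered for C13* and 200 for A2780, and 6.6% and 8.7% of the calls were false. Far fewer genes changed in the simulation than were called in the data. Alternatives were pseudocounts of 0.1 and 0.01, no filter or one at 5, 3 scalings, 1 fit of all groups, a replicate block, library ranges, each library left out, a correction for GC content and length, and, chosen after seeing the data, a fold change of at least 2 and a block by library code number. Ratios were recomputed only with the other pseudocounts, the library ranges and each library left out. Positions and exon overlaps are from GENCODE on hg38.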

Additional observations from a re-analysis of the deposited data

Results flagged for a closer look

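Of 60 groups of values tested (10 members and 5 log2 ratios in 4 groups) for a lowest or highest library far from its neighbour by Dixon's test, 6 had one, where chance gives about 3. In A2780, SMARCC1 had its lowest value of 35.4 FPKM in replicate 3, next to 37.1, and SMARCC2 its highest value of 34.9 FPKM in replicate 1, next to 32.9. In C13* shCEBPB, replicate 8 was lowest both for ARID1A, at 13.1 FPKM next to 16.0, and for ARID1B, at 4.11 FPKM next to 4.73. The SMARCC2/SMARCC1 log2 ratio was highest at -0.58 in shCON replicate 2, next to -0.69, and lowest at -0.87 in shCEBPB replicate 3, next to -0.60.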

How the results depend on the processing

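Among recomputed differences of members, 587 kept their direction and side of the threshold, 21 lost the call, 5 gained it and 3 turned. ARID2 turned to -0.00434 in C13* within libraries 4 to 8, and in A2780 OlaR ARID1B turned to 0.02 with quantile normalization and PBRM1 to -0.0729 within libraries 4 to 8. A fold change of at least 2 left 3539 genes and 2 members called in C13*, and 4446 genes and 3 members in A2780 OlaR. With each library left out in turn, 10013 to 10300 genes and 9 to 10 members were called in C13*, and 11106 to 11175 genes and 8 to 9 members in A2780 OlaR. With libraries 1 to 3 only, where the exact permutation test of 3 against 3 cannot pass the threshold, the C13* ratios were -0.85 (SMARCA2/SMARCA4), -0.0129 (SMARCC2/SMARCC1, turned), 0.35 (ARID1B/ARID1A) and 0.38 (ARID2/ARID1A), and those of A2780 OlaR 2.0003 (SMARCA2/SMARCA4), -0.61 (SMARCC2/SMARCC1), -1.48 (ARID2/ARID1A) and -3.41 (SMARCD3/SMARCD1). The C13* ARID2/ARID1A ratio turned to -0.23 within libraries 4 to 8 (exact p = 0.0159), and ran from -0.0463 to 0.0481 with each library left out, turning without shCON replicates 1 or 2 and without shCEBPB replicates 1 or 3. The cause was not tested. Same-numbered libraries did not deviate together (mean r -0.148 in C13* and -0.233 in A2780, against 0.0234 and 0.0370 for other numbers), and 1 of 7 and 0 of 8 pairs correlated best with their own number. With the replicate number of the titles as a block, 9885 genes and 10 members were called in C13*, and 10960 genes and 8 members in A2780 OlaR, where ARID1A lost its call (adjusted p = 0.0662, limma). The codes number shCON replicates 6 and 7 as 7 and 8. A replicate block by that number, chosen after seeing the data, called 9833 genes and 9 members in C13*, where ARID2 lost its call (adjusted p = 0.0625, limma), and gave a mean r of -0.168 for libraries of 1 number. Unknown read totals limit what can be said of low members, among them SMARCD3 (outside A2780), ARID1B and ARID2.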
